A study of Homo sapiens with 32 samples.

Results

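The miRNA family of miR-103 and miR-107 and the miR-26 family are made from hairpins that lie inside introns of 2 families of protein-coding genes. The 5 precursor names mir-103a, mir-103b, mir-107, mir-26a and mir-26b were taken by name from a table of 1513 miRNA rows. Earlier results of these data were known when they were chosen. Of the 5 names, mir-103a, mir-107, mir-26a and mir-26b were counted in every library, and mir-103b had no count in any of the 32 libraries.

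The libraries came from 293T cells (CRL-3216), a human embryonic kidney line, in 8 clones grown under puromycin after transient transfection and sorted on day 5 for a fluorescent marker on the vector. Clones 52, 55, 57 and 67 had the wild-type DGCR8 gene. Clones 30, 34, 42 and 43 carried the genotype DGCR8 delta103-126Q, a prime-edited removal of the N-terminal segment where the protein ERH is reported to bind. Each clone received the non-targeting vectors control shRNA 1 and control shRNA 2 and, in separate transfections, 2 vectors against ERH, so that 4 clones stood behind each of the 8 groups and all groups shared the transfection, the selection and the sort. Every clone derives from this 1 line. Neither the level of ERH nor the edited site could be read from a miRNA table, so the labels were taken as given.

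MicroRNAs are cut from long primary transcripts in the nucleus by the Microprocessor, which is the nuclease DROSHA with the RNA-binding protein DGCR8, and the released hairpin is trimmed further by DICER1 to a short duplex. For an intronic hairpin the primary transcript is the host gene's own pre-mRNA. The miR-103 and miR-107 family sits in the PANK genes, which encode pantothenate kinases, the enzymes that open coenzyme A synthesis, and is known for targeting DICER1 and caveolin. The miR-26 family sits in the CTDSP genes, which encode small phosphatases that act on the C-terminal domain of RNA polymerase II, and is known for targeting EZH2 and cell cycle genes. Bases 2 to 8 of a miRNA, the seed, do most of the pairing with target mRNAs.

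The mature sequences are shown because they decide which counts can be told apart. They are from RefSeq (GRCh38.p14), 5′ to 3′, with the seed in capitals.
miR-103a-3p: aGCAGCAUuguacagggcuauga
miR-107: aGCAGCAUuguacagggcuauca
miR-26a-5p: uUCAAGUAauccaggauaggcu
miR-26b-5p: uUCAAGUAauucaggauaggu
miR-103b: uCAUAGCCcuguacaaugcugcu
The miR-103a-3p and miR-107 sequences differ at 1 of 23 bases, G22C, counted from 1 at the 5′ end with the miR-103a-3p base first. The miR-26a-5p and miR-26b-5p sequences differ at 2 of the 21 bases they share, C11U and C21U, with the miR-26a-5p base first. Within each family the seed is the same, so reads that lack the distinguishing 3′ end of miR-103a-3p and miR-107 cannot be given to one of them, and the split of counts inside that family is uncertain. Mature miR-103b is the exact reverse complement of miR-103a-3p over all 23 bases, as its hairpins lie on the other strand of the same loci. No other row with either seed was well covered: mir-1297, which shares the miR-26 seed, reached at most 3 counts, and mir-4465 at most 1.

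The 6 hairpins that feed the 4 counted rows are shown because these are the structures the Microprocessor cuts. The guide arm, which gives the mature miRNA named above, is in capitals.
MIR103A1: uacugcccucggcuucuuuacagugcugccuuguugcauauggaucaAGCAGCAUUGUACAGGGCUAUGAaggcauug
MIR103A2: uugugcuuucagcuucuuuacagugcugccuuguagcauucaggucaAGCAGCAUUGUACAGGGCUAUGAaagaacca
MIR107: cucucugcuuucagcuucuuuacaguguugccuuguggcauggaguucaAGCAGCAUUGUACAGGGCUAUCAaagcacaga
MIR26A1: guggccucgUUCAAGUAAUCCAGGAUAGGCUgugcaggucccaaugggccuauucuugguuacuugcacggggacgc
MIR26A2: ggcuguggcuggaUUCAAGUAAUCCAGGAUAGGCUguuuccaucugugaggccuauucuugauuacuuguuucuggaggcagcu
MIR26B: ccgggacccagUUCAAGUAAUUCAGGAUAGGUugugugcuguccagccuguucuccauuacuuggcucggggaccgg
In the PANK family the guide is on the 3′ arm, and in the CTDSP family on the 5′ arm. MIR103A1 (chr5:168560896-168560973, minus strand) lies in intron 5 of 6 of PANK3. MIR103A2 (chr20:3917494-3917571, plus strand) lies in intron 5 of 6 of PANK2. MIR107 (chr10:89592747-89592827, minus strand) lies in intron 5 of 6 of PANK1, the same intron number as in its paralogs. MIR26A1 (chr3:37969404-37969480, plus strand) lies in intron 5 of 7 of CTDSPL, and MIR26A2 (chr12:57824609-57824692, minus strand) in intron 5 of 7 of CTDSP2. MIR26B (chr2:218402646-218402722, plus strand) lies in intron 4 of 6 of CTDSP1. All coordinates are GRCh38, and intron numbers are those of the principal transcript in GENCODE release 29. Every hairpin is intronic in each protein-coding transcript of its host that spans it, on the host's strand. None has another hairpin within 10 kb on its strand, the nearest being 60666 bases from MIR26B. The single mir-103a row sums 2 loci, as does the mir-26a row, so their separate hosts could not be compared.

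Libraries held 1318923 to 6222790 miRNA counts. The 4 kidney epithelium miRNAs mir-192, mir-194, mir-204 and mir-200c were all counted in every library. The 7 blood, liver and muscle miRNAs (mir-223, mir-142, mir-451a, mir-122, mir-1, mir-133a and mir-206) were also present, with summed levels of 334 to 855 CPM (counts scaled to 1000000 per library) in the wild-type control libraries, 234 to 911 CPM in the wild-type libraries under ERH shRNAs, 273 to 3905 in the deletion control libraries and 402 to 1634 in the deletion libraries under ERH shRNAs. Clone 30 (1083 to 3905 CPM) and clone 34 (605 to 1941 CPM) held the highest of these levels. No marker was at 0 throughout an arm of a genotype. The mir-206 row was at 0 in 23 of the 32 libraries, and 1 marker was at 0 throughout clone 52 and 1 throughout clone 55. Changes in the number of cells of a type and in RNA per cell cannot be told apart in such bulk libraries.

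Together the 4 counted rows took 4.98 to 7.87% of a library's miRNA counts, with a median of 6.36%. The mir-103a row was the most abundant of them, with a median share of 4.23% and a rank between 3 and 9 among all rows. The mir-26a row took 1.11% and the mir-26b row 0.727%, and mir-107 took 0.228%. Counts ran from 55317 to 248737 for mir-103a, from 15685 to 70352 for mir-26a, from 7052 to 57581 for mir-26b and from 2859 to 12220 for mir-107. The mir-103b row stayed at 0 of 77753539 counts over all libraries, and a count of 0 allows up to 3 counts, or 0.0386 CPM. That limit covers counting error only.

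The first comparison asked how the deletion changed these miRNAs with ERH left in place. All 4 counted rows fell in the deletion clones under control shRNAs, with log2 fold changes of -0.73 to -0.56, though none was called under the total or spike-in scaling given below. Over all 536 rows tested, 25.9% changed and 7.09% fell. Levels are given as CPM after TMM scaling, which assumes that most rows do not change, over the 2 libraries of an arm summed per clone. For each of the 4 counted rows these levels lay lower in the 4 deletion clones than in all 4 wild-type clones. How many of all rows split in this way was not counted. Unscaled shares of single libraries overlapped for all 4 rows. For mir-103a they were 4.70% in deletion clone 34 (control shRNA 2) and 3.94% in wild-type clone 52 (control shRNA 1). For mir-107, deletion clone 34 had 0.259% and wild-type clone 57 had 0.207% (both control shRNA 1). For mir-26a, deletion clone 43 had 1.18% and wild-type clone 52 had 0.932% (both control shRNA 2). For mir-26b, deletion clone 43 had 0.819% and wild-type clone 52 had 0.559% (both control shRNA 1).

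For mir-103a, the leading member of the PANK family, the wild-type control levels were 46106, 56358, 60041 and 68672 CPM in clones 52, 55, 57 and 67. The deletion control levels were 36646, 37074, 30842 and 32625 CPM in clones 30, 34, 42 and 43. The lowest wild-type clone stood above the highest deletion clone. The log2 fold change was -0.73 ± 0.14 (SE, n = 4 against 4 clones), a fold of 0.603, with an adjusted p of 0.00796 in edgeR's quasi-likelihood test.

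Its near-twin mir-107, from PANK1, had 2832, 2834, 2876 and 3856 CPM in the wild-type control clones 52, 55, 57 and 67. The deletion control clones 30, 34, 42 and 43 had 2177, 2165, 1808 and 2114 CPM. Wild-type clones 52, 55 and 57 were nearly equal and clone 67 was higher, while clone 42 was the lowest of the deletion clones. The log2 fold change was -0.56 ± 0.17 (SE) with an edgeR adjusted p of 0.0331.

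In the CTDSP family, mir-26a had 12477, 14877, 17184 and 15982 CPM in the wild-type control clones 52, 55, 57 and 67. The deletion control clones 30, 34, 42 and 43 had 10915, 8195, 10219 and 10276 CPM. The groups did not overlap, and clone 34 was the lowest. The log2 fold change was -0.59 ± 0.16 (SE) with an edgeR adjusted p of 0.0199.

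The mir-26b row, from CTDSP1, was the most variable member, with 8287, 13416, 10039 and 8523 CPM in the wild-type control clones 52, 55, 57 and 67. The deletion control clones 30, 34, 42 and 43 had 6932, 5954, 4819 and 7680 CPM. The highest deletion clone came within a small margin of the lowest wild-type clone. The log2 fold change was -0.64 ± 0.22 (SE) with an edgeR adjusted p of 0.0448.

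**Figure D1:**
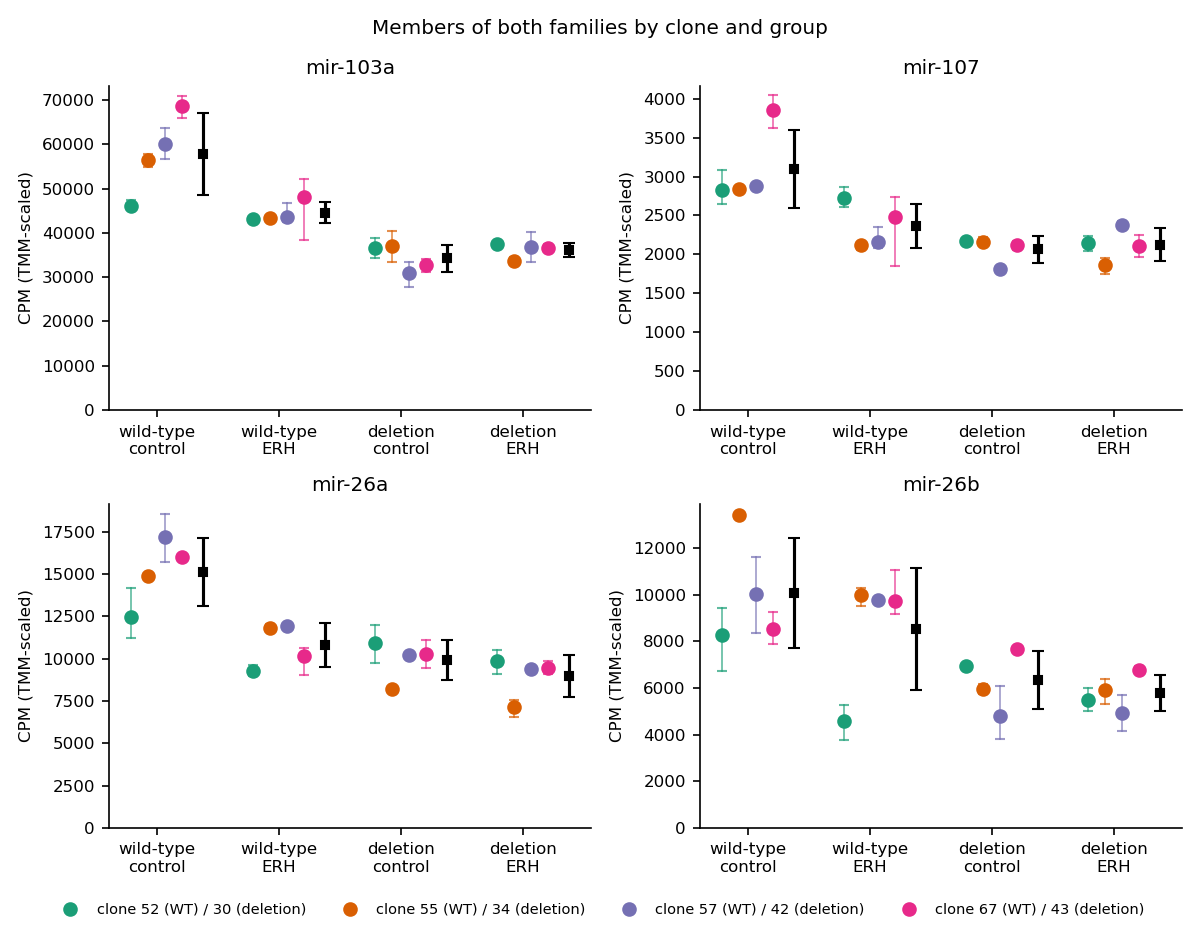
TMM-scaled CPM (vertical axis, from 0) of the 4 counted members in each group, with 1 filled point per clone (sum of 2 libraries, thin bars joining the 2 libraries at the sum's scaling factor) and black squares for the mean ± SD of 4 clones. For all 4 members the wild-type control clones lie above the deletion control clones, as for mir-103a with 46106 against 37074 CPM at the nearest. How many of all rows do so was not counted, and unscaled shares of single libraries overlapped for all 4 members.

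The size of the fall depended on the scaling. The TMM factors behind the CPM levels, computed over all 16 sums, were 0.72 to 0.83 in the wild-type control sums and 0.93 to 1.16 in the deletion control sums. Each fit computed its own factors over the sums it compared. Scaled to total miRNA counts, the log2 fold changes were -0.31 (mir-103a), -0.15 (mir-107), -0.17 (mir-26a) and -0.23 (mir-26b), and none of the 4 passed. Scaled to the spike-in RNAs added to equal amounts of total RNA, they were -0.24, -0.073, -0.12 and -0.20 in the same order, and none passed. The median of all rows moved from -0.033 under TMM to 0.39 with total scaling and 0.42 with spike-in scaling. Relative to that median, the members stood lower under each scaling, a distance that scaling hardly changes by construction. The mir-103a row stood at -0.70 with TMM, -0.70 with total scaling and -0.66 with spike-ins. The corresponding values were -0.53, -0.54 and -0.49 for mir-107. For mir-26a they were -0.55, -0.57 and -0.53, and for mir-26b -0.61, -0.62 and -0.62.

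Other abundant rows moved the same way. Of the 82 other rows with a mean of at least 1000 CPM, a limit chosen after the values were seen, 70 had a log2 fold change below 0, and 19 fell and 6 rose in the edgeR test. Their median was -0.41, beside -0.62 for the 4 members and -0.033 for all rows. Whether the members differ from other abundant rows was not tested. With clones 30 and 34 left out, the clones with the most blood, liver and muscle miRNA, mir-103a passed with -0.79 (edgeR adjusted p = 0.0470), and the other members had -0.58 (mir-107), -0.49 (mir-26a) and -0.60 (mir-26b) without passing. Of those markers mir-223 rose in the deletion clones under control shRNAs (2.33 on the log2 scale, and 3.06 with spike-in scaling). The mir-142 row stood at 1.68 without passing (edgeR adjusted p = 0.0557). The other tested markers ran from -0.61 (mir-133a) to -0.029 (mir-451a), and the median of the 6 tested was -0.081. The 4 kidney markers had a median of -0.57 there, and mir-204 fell (-1.24, but -0.62 and not called with spike-in scaling). The part of either marker list in the result was not tested.

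Several of these calls were lost when a clone was left out, which also leaves fewer clones to test. With all clones the log2 fold changes were -0.59 (mir-26a), -0.56 (mir-107) and -0.64 (mir-26b). Some calls were lost although the fold change did not shrink, so a lost call does not show that the clone left out carried it. The mir-103a call held without each of the 8 clones in turn. The mir-26a call was lost without clone 34 (-0.51), 57 (-0.45) or 67 (-0.51). The mir-107 call was lost without clone 30 (-0.53), 34 (-0.58), 42 (-0.50), 43 (-0.60), 52 (-0.62), 57 (-0.52) or 67 (-0.40). The mir-26b call was lost without clone 30 (-0.62), 34 (-0.61), 42 (-0.53), 55 (-0.52), 57 (-0.57) or 67 (-0.66). All these log2 fold changes stayed below 0. With no filter on low counts, or with a mean of at least 100 counts, mir-103a alone was called.

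**Figure D2:**
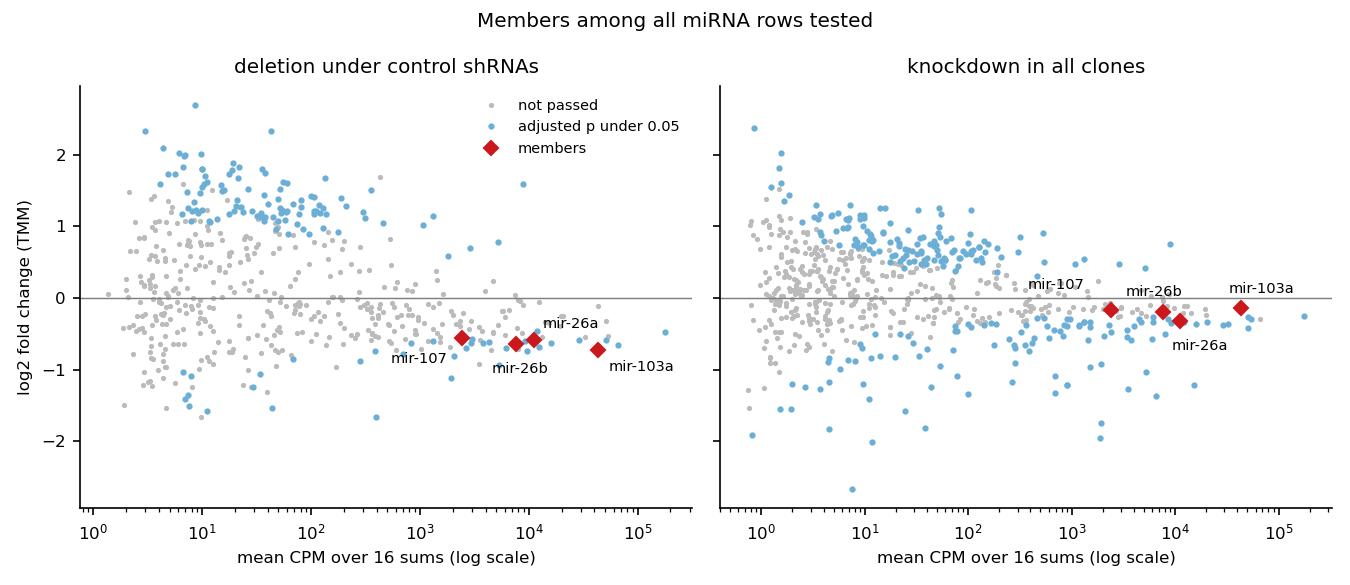
Log2 fold change (TMM, vertical axis) against the mean CPM over 16 sums (log axis) for all rows tested, in the deletion under control shRNAs and in the knockdown over all clones, with the 4 members as diamonds. The members lie at the abundant end, between -0.73 and -0.56 for the deletion and, for the knockdown, between -0.32 and -0.14 (0.14 to 0.32 with spike-in scaling).

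Under ERH shRNAs, no member passed between deletion and wild-type clones, and no row of the 569 tested was called (0%). By DESeq2, 5 rows were higher and 3 lower, and 87 rows had an unadjusted edgeR p under 0.05. For mir-103a the wild-type clones 52, 55, 57 and 67 had 43089, 43417, 43623 and 48077 CPM. The deletion clones 30, 34, 42 and 43 had 37373, 33739, 36896 and 36628 CPM. These groups of clone sums again did not overlap, but the log2 fold change of -0.31 ± 0.14 (SE) did not pass (edgeR adjusted p = 0.320). Single libraries at the sums' scaling factors did overlap. Wild-type clone 67 had 38337 CPM with ERH shRNA 2, and deletion clone 42 had 40271 CPM with ERH shRNA 1. Values for mir-107 were -0.17 ± 0.17, for mir-26a -0.28 ± 0.17 and for mir-26b -0.58 ± 0.25 on the log2 scale, and the genotypes overlapped in all 3. The mir-26b levels were 4597 CPM in wild-type clone 52 and 9719 to 9999.5 CPM in wild-type clones 55, 57 and 67, so that 1 wild-type clone lay below all deletion clones (4926 to 6774 CPM).

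The second comparison asked what the ERH shRNAs did within each clone. Over all 8 clones mir-26a fell under TMM scaling, by 0.32 ± 0.096 (SE) on the log2 scale (edgeR adjusted p = 0.0137), but stood at 0.14 with spike-in scaling. Its TMM-scaled level was lower under ERH shRNAs in 8 of 8 clones, and the call held without each clone in turn. Of the 667 rows tested 36.6% changed and 16.5% fell, with a median of 0.061. The mir-26a call was lost with no filter (edgeR adjusted p = 0.0693), with a mean of at least 100 counts (0.0516) and with the shRNA 2 libraries alone (0.143). The other members did not pass, with -0.14 ± 0.10 for mir-103a (lower in 5 of 8 clones), -0.17 ± 0.11 for mir-107 (7 of 8) and -0.20 ± 0.11 for mir-26b (6 of 8). With spike-in scaling the other values became 0.32 (mir-103a), 0.29 (mir-107) and 0.26 (mir-26b), beside a median of 0.52 for all rows, and none of the 4 was called. With total scaling they were 0.13, 0.10, -0.043 and 0.072 for mir-103a, mir-107, mir-26a and mir-26b, beside a median of 0.33. Relative to those medians mir-26a stood at -0.38 with TMM, -0.37 with total scaling and -0.37 with spike-ins, a distance that scaling hardly changes by construction. The 4 kidney markers had a median log2 fold change of -0.51 in this comparison, with 3 passing as lower under TMM. With spike-in scaling mir-192 (-1.49) was still called, and mir-194 (0.068) and mir-204 (-0.16) were not. The 7 blood, liver and muscle markers, of which 6 were tested, had a median of -0.68 with 4 lower under TMM, and none of those 4 was called with spike-in scaling, where mir-122 was at -0.43, mir-133a at -0.36, mir-142 at -0.083 and mir-451a at -0.72. The part of either marker list in the result was not tested.

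In the wild-type clones alone, mir-26a levels under ERH shRNAs were 9265, 11814, 11944 and 10159 CPM in clones 52, 55, 57 and 67, each below the same clone's control level. It fell by 0.44 ± 0.16 (SE) on the log2 scale under TMM scaling (edgeR adjusted p = 0.0407) and stood at 0.18, not called, with spike-in scaling, in a background where 31.3% of the 613 rows changed and 10.4% fell. Without clone 55, 57 or 67 this call was lost, with fold changes of -0.50, -0.43 and -0.38 on the log2 scale and fewer clones to test. The mir-103a values were lower in 4 of 4 clones, with clone differences between -0.51 and -0.098, and the fitted -0.31 ± 0.15 did not pass (edgeR adjusted p = 0.114). The mir-107 levels of clones 52, 55, 57 and 67 were 2721, 2121, 2159 and 2475 CPM, also lower than the control level in 4 of 4, and the fitted -0.33 ± 0.16 did not pass (edgeR adjusted p = 0.125). By DESeq2 mir-103a (-0.45, adjusted p = 0.0252) and mir-107 (-0.47, adjusted p = 0.0241) passed as well. The mir-26b change was -0.23 ± 0.19, with clone differences from -0.85 in clone 52 to 0.19 in clone 67.

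In the deletion clones no member passed, while 10.3% of the 633 rows did. The mir-103a value was 0.052 ± 0.10 and that of mir-107 0.011 ± 0.12 on the log2 scale. The mir-26a value was -0.18 ± 0.091, lower in 4 of 4 clones, with clone differences between -0.20 and -0.12. The mir-26a levels of clones 30, 34, 42 and 43 under ERH shRNAs were 9856, 7119, 9365 and 9471 CPM. The mir-26b value was -0.15 ± 0.11, with levels of 5490, 5938, 4926 and 6774 CPM in the same clones.

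The interaction asked whether the knockdown effects of the genotypes differed. No row of the 667 tested was called (0%), 127 had an unadjusted edgeR p under 0.05, and DESeq2 called 5 rows higher and 11 lower. The member values, as deletion minus wild-type effect, were 0.44 ± 0.15 for mir-103a (edgeR adjusted p = 0.180), 0.42 ± 0.19 for mir-107, 0.34 ± 0.15 for mir-26a and 0.16 ± 0.21 for mir-26b. All 4 were positive under TMM, but mir-26a and mir-26b were negative with spike-in scaling (-0.064 and -0.25), as was mir-26b with total scaling (-0.072). Without clone 52 the mir-103a difference passed, at 0.53 (edgeR adjusted p = 0.0462). So a difference of the knockdown effects was not shown for these members.

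**Figure D3:**
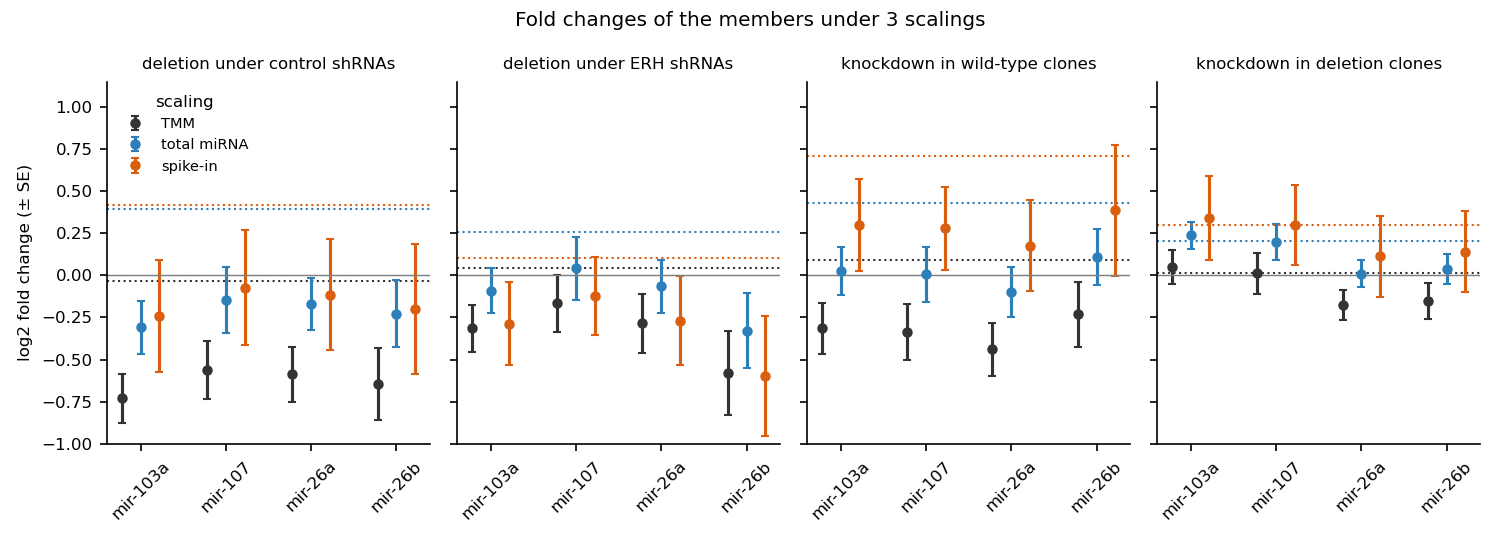
Log2 fold change ± SE (vertical axis) of the 4 members in 4 comparisons under TMM, total miRNA and spike-in scaling, with dotted lines at the median of all rows under the same scaling. In the deletion under control shRNAs each member lies below the dotted line of its scaling, while its distance from 0 shrinks, as from -0.73 to -0.24 for mir-103a. A change of scaling moves the line and the members together.

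The control vectors gave the technical background. Control shRNA 2 against control shRNA 1, in 16 libraries with the clone as a block, called no row of 571 (0%), with 48 at an unadjusted edgeR p under 0.05 and 1 called by DESeq2. The members' log2 fold changes were 0.0069 (mir-103a), -0.031 (mir-107), 0.020 (mir-26a) and -0.026 (mir-26b). The 2 libraries of a clone and arm differed by a median of 1.08-fold for mir-103a, 1.07-fold for mir-107, 1.08-fold for mir-26a and 1.19-fold for mir-26b. The widest gap was 1.59-fold, for mir-26b under control shRNAs in clone 42.

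Ordered by mean TMM-scaled level, mir-103a stood highest in the wild-type control group at 57794 ± 9346 CPM (SD, n = 4). Overlap of groups is described for the members only and was not counted over all rows. It was followed by the wild-type ERH group at 44552 ± 2361, the deletion ERH group at 36159 ± 1643 and the deletion control group at 34297 ± 3053 CPM. Of the neighbours in that order only the wild-type ERH and deletion ERH groups did not overlap as clone sums, though their single libraries did. The mir-107 means were 3099 ± 504.5, 2369 ± 283, 2124 ± 212 and 2066 ± 174 CPM in the same order of groups, and only the first and second did not overlap. For mir-26a the deletion control group (9901 ± 1181 CPM) came before the deletion ERH group (8953 ± 1241 CPM), after the wild-type control (15130 ± 2004 CPM) and wild-type ERH groups (10796 ± 1304 CPM), and again only the first and second did not overlap. For mir-26b the order was the same as for mir-26a, from 10066 ± 2364 to 5782 ± 780 CPM, and every pair of neighbours overlapped.

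Ratios of rows within a library do not depend on the scaling. The mir-107 to mir-103a ratio was 0.0479 to 0.0614 in the wild-type control clones and 0.0584 to 0.0648 in the deletion control clones. Its mean log2 ratio moved from -4.22 to -4.05, which is 0.17 apart (two-sided exact permutation over 70 arrangements, p = 0.143, or 0.747 after adjustment). The mir-26b to mir-26a ratio spread more widely, from 0.472 to 0.957 over all groups of clones. It showed no common direction under ERH shRNAs, being lower in 4 and higher in 4 of 8 clones, with changes between -0.42 in clone 52 and 0.84 in clone 67.

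The PANK family (mir-103a plus mir-107) outweighed the CTDSP family (mir-26a plus mir-26b) by 1.93- to 3.30-fold. That log2 ratio was 1.27 ± 0.21 in the wild-type control clones and 1.17 ± 0.22 in the deletion control clones (SD, n = 4 each), a difference of -0.10 (exact permutation p = 0.486). Per spike-in count, the PANK family differed by 0.32 ± 0.38 (SD) on the log2 scale under ERH shRNAs, with 5 of the 8 clones higher (p = 0.0703 by exact permutation of signs, or 0.747 after adjustment). The change of the CTDSP family was 0.19 ± 0.51, also higher in 5 of 8 clones. For the deletion under control shRNAs the corresponding differences were -0.28 (PANK) and -0.18 (CTDSP). None of the 20 ratio tests had a p under 0.05, and the smallest p these designs allow are 0.0286 for 4 against 4 clones and 0.00781 for 8 sign flips. After adjustment over 20 tests, a lone test at either limit would not pass, so the lack of a pass says little. A p above the threshold does not show that the ratios were equal.

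**Figure D4:**
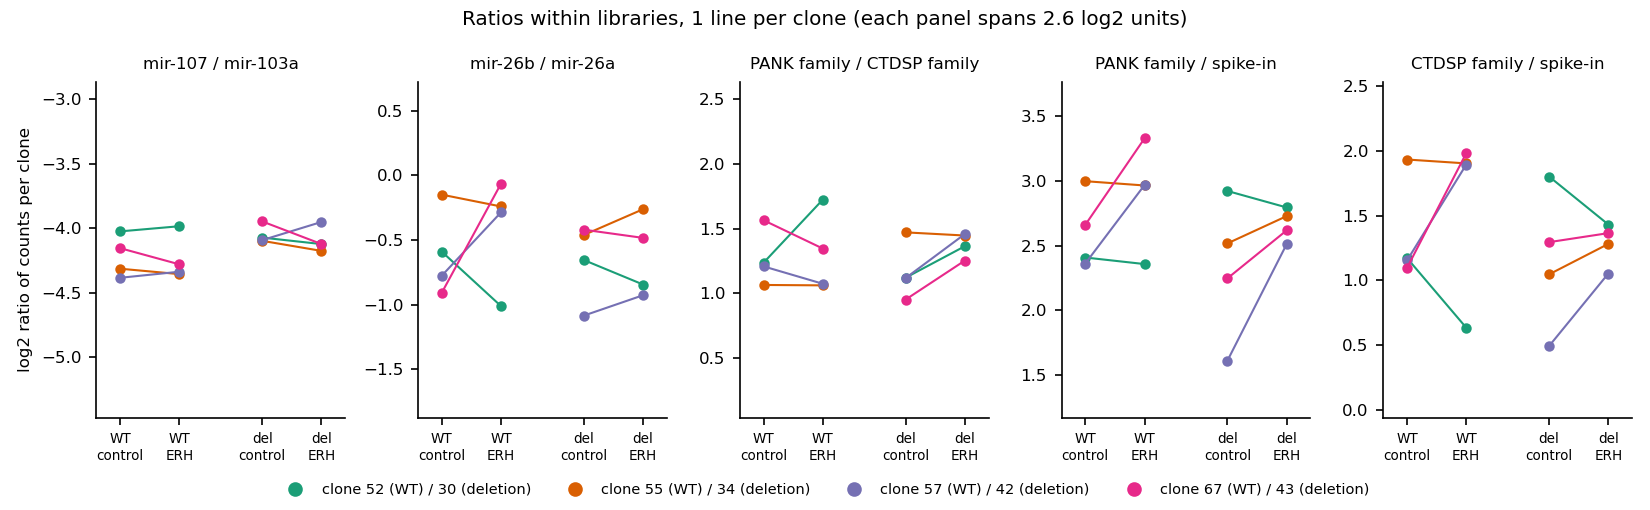
Log2 ratios of counts per clone (vertical axis, 2.6 log2 units in each panel), each line joining the control and ERH sums of 1 clone. The mir-107 to mir-103a lines stay between -4.38 and -3.95, while mir-26b to mir-26a lines run in both directions.

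The miR-15/16 group shares the AGCAGC core with miR-103a-3p and miR-107, shifted by 1 base, and was followed as related miRNAs with other genomic settings: these hairpins lie in clusters. Of 8 listed names 7 were tested, mir-646 not being analysed here. In the knockdown over all clones 5 fell, namely mir-15a (-1.75 on the log2 scale), mir-15b (-1.04), mir-497 (-0.57), mir-424 (-0.39) and mir-16 (-0.26), of which mir-16 and mir-424 were at 0.21 and 0.057 with spike-in scaling. The mir-497 value shrank to -0.11 there and was not called, while mir-15a (-1.30) and mir-15b (-0.57) were still called. The mir-195 (-0.24) and mir-503 (0.21) rows did not pass. Their median was -0.39, beside -0.19 for the 4 members and 0.061 for all rows. In the deletion under control shRNAs 2 of the 7 fell, mir-15b (-0.94) and mir-16 (-0.47), though with spike-in scaling mir-15b was at -0.47 and mir-16 at 0.037 and neither was called.

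A list of 18 other miRNAs alone in a protein-coding host's intron, such as mir-148b in COPZ1 and mir-140 in WWP2, gave the genomic setting most like that of the members. Their mean levels differed widely, from 4.51 CPM (mir-335) to 12317 CPM (mir-186). In the deletion under control shRNAs 2 of 18 fell, mir-148b (-0.47) and mir-361 (-0.58), though with spike-in scaling mir-148b was at 0.0089 and mir-361 at -0.12 and neither was called. None rose, and the median was -0.22. In the knockdown over all clones mir-335 fell (-0.83, but -0.38 and not called with spike-in scaling) and mir-874 rose (0.48, and 0.94 with spike-in scaling). Both are scarce rows, mir-874 having a mean of 39.5 CPM. The other 16 did not pass, and the median was -0.074. All 4 counted members were called in the deletion comparison under TMM, where 7.09% of all rows fell, and none was called with spike-in or total scaling. No test set the lists against each other.

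Among the other 191 rows with a mean of at least 100 CPM, those most like mir-103a over the 16 sums were mir-183 (Pearson r of 0.90 on log2 CPM), mir-107 (0.90) and mir-324 (0.89). For mir-26a they were mir-23a (0.88), mir-10b (0.87) and mir-16 (0.87). The r between mir-103a and mir-26a was 0.82, and that between mir-26a and mir-26b was 0.70, below 38 other rows. The sums share groups, clones and scaling factors, so these values only describe likeness.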

How the data were processed

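Small RNA-seq (QIAseq miRNA kit, per the labels' protocols) was read from 1 deposited table of read counts, whole numbers per precursor and library, per the file headers. SAMtools is named in the submitters' processing notes. Aligner, annotation, genome build and any use of molecular identifiers are not given in the sources used here. Counts cover both arms and all loci of a precursor. Counts of the 2 libraries of each arm were summed per clone (n = 4 clones per genotype, separate clones of 1 line). Differences were tested over all rows with edgeR 4.0.16 in R 4.3.3 (filterByExpr, TMM, glmQLFit, glmQLFTest, clone as block for knockdown, Benjamini-Hochberg at 0.05). The SE is the absolute fold change over the root of F. Log2 CPM used a prior count of 2. Ratios were tested by exact permutation with adjustment over 20 tests. The labels give each clone every vector, and a clone's control and ERH sums deviated together (r from 0.41 to 0.86 over 314 rows). Within groups, 48 pairs of libraries differed by at least 75.4 chi-square per degree of freedom. The edgeR script was tested on simulated data. Alternatives were DESeq2 1.42.0, spike-in and total scaling, filters, single shRNAs, single libraries, no block and each clone left out. Leaving out clones 30 and 34 together was added after the data were seen. Loci came from GENCODE 29 and RefSeq (GRCh38). Named rows were the members, listed rows that passed, and the 3 rows most like mir-103a and mir-26a. Members and lists were chosen with earlier results of these data known.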

Additional observations from a re-analysis of the deposited data

Results flagged for a closer look

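In 36 groups of 4 clones (4 members and 5 ratios), 8 held a clone far from the other clones by Dixon's criterion, which chance flags in about 1 of 20 groups. For mir-103a this was wild-type clone 67 under ERH shRNAs (48077 CPM). For mir-107 it was wild-type clone 67 (3856 CPM) and deletion clone 42 (1808 CPM), both under control shRNAs. For mir-26a it was deletion clone 34 under ERH shRNAs (7119 CPM), and for mir-26b wild-type clone 52 under ERH shRNAs (4597 CPM). The log2 ratio of mir-107 to mir-103a stood apart in deletion clone 43 under control shRNAs (-3.95). The log2 ratio of the CTDSP family to spike-in RNA stood apart in wild-type clone 52 under ERH shRNAs (0.63) and in wild-type clone 55 under control shRNAs (1.93).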

How the results depend on the processing

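Of the 4 counted members, the number called was 4 for the deletion under control shRNAs, 1 for the knockdown in all clones and in wild-type clones, and 0 elsewhere. For the deletion under control shRNAs it was 0 with spike-in or total scaling and 1 with no filter, with a mean of at least 100 counts, with shRNA 2 libraries only or without clones 30 and 34 (chosen after the data were seen), and 1 to 3 without each clone. For the knockdown in all clones it was 0 with spike-in or total scaling, no filter, a mean of at least 100 counts, no replicate block, or shRNA 2 only. In wild-type clones it was 3 with DESeq2, single libraries or shRNA 1 only, 0 with spike-in or total scaling, no filter, no replicate block or shRNA 2 only, and 0 to 1 without each clone. With single libraries it was 1 for the deletion under ERH shRNAs and 1 for the interaction, and the interaction gave 0 to 1 without each clone. The single-library setting counts the 2 libraries of a clone and arm as separate samples, so it overstates the number of replicates. The block changed no other call.

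Log2 fold changes that turned sign are given in the order of scaling, with the other settings after. The knockdown in all clones with spike-in scaling gave 0.32 (mir-103a), 0.29 (mir-107), 0.14 (mir-26a) and 0.26 (mir-26b), and with total scaling 0.13, 0.10 and 0.072 for mir-103a, mir-107 and mir-26b. In wild-type clones spike-in scaling gave 0.30, 0.28, 0.18 and 0.39 in that order of the 4, and total scaling gave 0.025 (mir-103a), 0.0051 (mir-107) and 0.11 (mir-26b). In deletion clones spike-in scaling gave 0.11 (mir-26a) and 0.14 (mir-26b), and total scaling 0.011 and 0.037. There shRNA 2 alone gave -0.071 (mir-103a) and -0.042 (mir-107), and mir-107 was -0.0044 with DESeq2, -0.0067 with no filter and -0.0092 with shRNA 1 alone. The deletion under ERH shRNAs gave 0.042 for mir-107 with total scaling. The interaction gave -0.064 (mir-26a) and -0.25 (mir-26b) with spike-in scaling, and for mir-26b -0.072 with total scaling and -0.23 with shRNA 1 alone. Without each clone, the knockdown ran from -0.38 to 0.026 for mir-26b in wild-type clones, and in deletion clones from -0.026 to 0.11 (mir-103a) and -0.13 to 0.080 (mir-107). The interaction of mir-26b ran from -0.034 to 0.27.

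No ratio test passed under any alternative run, and 20 of the 233 alternative values of the ratios turned sign. With shRNA 1 alone the PANK family to spike-in ratio rose under ERH shRNAs in 8 of 8 clones. That rise was 0.48 on the log2 scale (exact permutation of signs, p = 0.00781, or 0.156 after adjustment). With shRNA 2 alone the lowest exact permutation p of any ratio test was 0.229. With a clone left out, the exact tests between genotypes cannot reach a p under 0.05, so they could not pass. The difference of knockdown effects with shRNA 2 alone was 0.10 (mir-107 to mir-103a), 0.071 (mir-26b to mir-26a) and 0.27 (CTDSP family to spike-in), and without each clone it ran from -0.081 to 0.024, -0.39 to 0.033 and -0.41 to 0.066. For the PANK family to spike-in it was -0.19 with shRNA 1 alone and -0.15 to 0.20 without each clone. The deletion under control shRNAs with shRNA 1 alone gave 0.22 (mir-26b to mir-26a) and 0.054 (CTDSP family to spike-in), with -0.15 to 0.10 and -0.39 to 0.042 without each clone. The PANK to CTDSP ratio under ERH shRNAs ran from -0.00075 to 0.22. With no replicate block the PANK family to spike-in ratio gave 0.32 in the knockdown. The causes were not tested. Depth did not limit the 4 counted rows, whose lowest count was 2859, while each comparison rests on 4 clones per genotype and the spike-in scaling on 9139 to 33090 counts a library. Of all spike-in counts, 92.6% came from 1 of the 4 spike-in rows.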
